A study of Arabidopsis thaliana with 4 samples.

Results

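The SPIRAL1 family of Arabidopsis thaliana comprises SPR1 (AT2G03680) and its relatives SP1L1 to SP1L5, and 5 of these 6 genes had a probe set annotated to 1 gene. The measured genes were SPR1, SP1L2 (AT1G69230), SP1L3 (AT3G02180), SP1L4 (AT5G15600) and SP1L5 (AT4G23496), with 1 probe set each. They were among 13356 genes with a probe set annotated to 1 gene, by symbol or by locus alone, and 22746 probe sets were tested. SP1L1 (AT1G26355) had no named probe set and was not analysed here. Members were taken by gene symbol or locus, and no probe set shared with another gene entered. The family was chosen by the intensities of SP1L2 in jaw-D and control on these same arrays, which were known to differ, so the differences of all members between jaw-D and control are descriptions and carry no test.

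Transcript levels were measured in shoots, the parts above ground, of plants aged 2 weeks, on 2 arrays of jaw-D plants (spelled jaw-d in the labels) and 2 arrays of Columbia control plants. jaw-D is a dominant activation-tagged line, in which the enhancers of an inserted tag raise the microRNA miR319a; the labels describe 1 such line and give no further allele or treatment for either group. miR319a targets mRNAs of several TCP transcription factors, which restrain growth at the leaf margin, and jaw-D leaves are uneven and crinkled. The labels do not state whether replicate arrays had separate plants behind them, so any p-value reflects how far these arrays varied, and that variation may be technical.

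SPIRAL1 proteins are small plant proteins that bind cortical microtubules, the arrays under the plasma membrane that guide cellulose deposition and so the direction in which a cell expands. SPR1 gathers at growing microtubule plus ends, and spr1 mutants show right-handed twisting of roots and other axial organs. The SP1L genes are its closest relatives in the same plant, and the family acts with partial redundancy: plants lacking several members twist and misshape their cells more than plants lacking 1. No DNA or protein sequence of the members was used here.

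Among the 5 measured genes, SP1L2 was higher in jaw-D by a ratio of about 3, SPR1 was higher by a small amount that changed with the scaling, and SP1L3, SP1L4 and SP1L5 differed little. The deposited intensities of SP1L2 were 1752.6 and 1913.5 array units on the jaw-D arrays, against 673.8 and 544.6 on the control arrays. The lower jaw-D array was well above the higher control array, and the groups did not overlap. The means were 1833 ± 114 units in jaw-D and 609 ± 91.4 in control (SD, n = 2 each), a ratio of 3.01 on the deposited linear scale and 2.83 after quantile normalization between the arrays. RNA came from whole aerial parts, so more cells that use SP1L2 and more SP1L2 RNA per cell cannot be told apart.

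**Figure D1:**
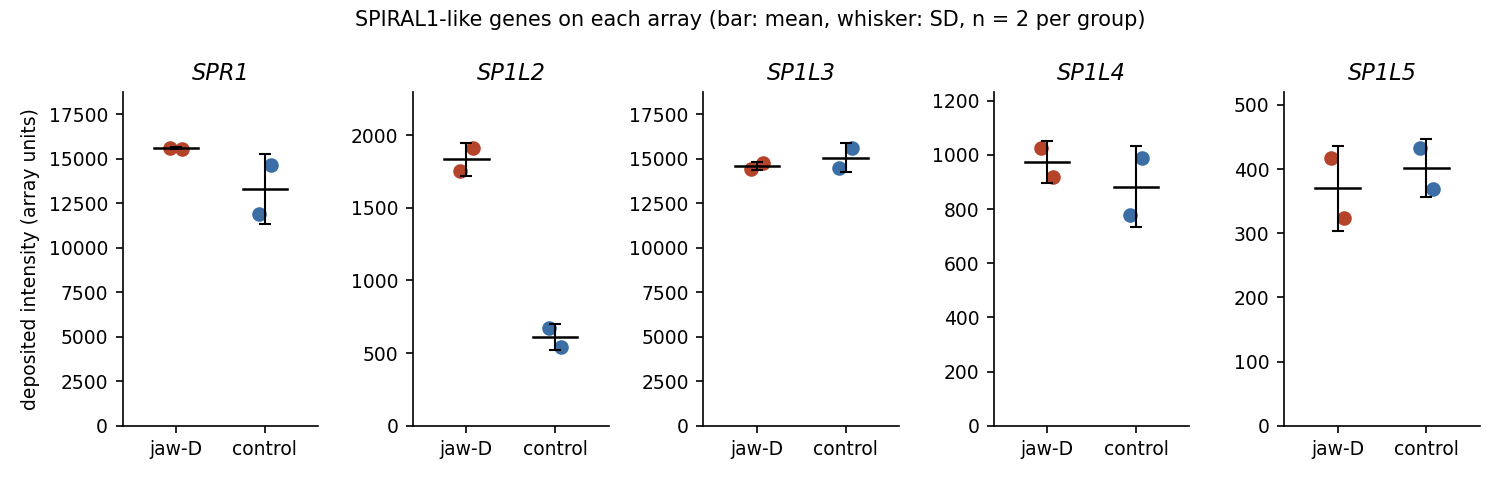
Deposited intensity (array units, linear axis from 0, a different range in each panel) of the 5 measured SPIRAL1-like genes, jaw-D left of control, with points for arrays, bars for means and whiskers for SD (n = 2 per group). For SP1L2 both jaw-D points (1752.6 and 1913.5) lie far above both control points (673.8 and 544.6), for SPR1 they lie above with a wide control spread, and for the other 3 genes the groups overlap.

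For comparisons between arrays, values were quantile normalised and taken as log2(value + 302.3), the added pseudocount being the 25th percentile of all deposited values. On this scale SP1L2 differed by 1.16 ± 0.13 (SE of the limma fit) between jaw-D and control. The 4 differences between a jaw-D and a control array ran from 1.05 to 1.27. It was number 20 from the top of 22746 probe sets ordered by this difference, a place of 0.0879% that describes how the gene came to be chosen. The pseudocount pulls dim values together, and SP1L2 was dim in control plants. With a pseudocount 0.1 times as large the difference was 1.46, and with one 4 times as large it was 0.70.

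SPR1, the founding member, had deposited intensities of 15629.3 and 15568.7 units in jaw-D, against 11909.5 and 14674.8 in control. The jaw-D arrays were nearly alike, the first control array was the lowest of the 4, and the groups did not overlap. The means were 15599 ± 42.9 units in jaw-D and 13292 ± 1955 in control (SD, n = 2 each). The log2 difference was 0.31 ± 0.10 (SE), and single pairs of arrays gave 0.17 to 0.45. It was 0.17 without the first control array, 0.45 without the second, and 0.14 with each array centred on its own median in place of quantile normalization.

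SP1L3 had deposited intensities of 14441.5 and 14755.7 units in jaw-D, against 14480.8 and 15618.7 in control. These values overlapped, with the second control array the highest. The log2 difference was 0.03 ± 0.06 (SE), and its sign turned with the scaling, to -0.04 without quantile normalization and -0.14 when arrays were centred on their medians. Single pairs of arrays differed by -0.03 to 0.08.

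SP1L4 had deposited intensities of 1027.0 and 917.2 units in jaw-D, against 776.3 and 988.4 in control. The control arrays spanned a wider range than the jaw-D arrays and reached between them. The means were 972 ± 77.6 units in jaw-D and 882 ± 150 in control (SD, n = 2 each), with a log2 difference of 0.04 ± 0.16 (SE). Leaving out 1 array at a time moved it between -0.13 and 0.20, so its direction is not settled by these arrays.

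SP1L5 was near background, with 416.5 and 323.4 deposited units in jaw-D, against 433.4 and 369.1 in control. Probe sets for Bacillus subtilis transcripts, which plants do not have, reached at most 352.6 units on any array, and 3 of the 4 SP1L5 values lay above that level. The deposited values overlapped, and the log2 difference was -0.09 ± 0.14 (SE), between -0.17 and 0.00 over pairs of arrays. After quantile normalization the control values of 405.24 and 406.16 both lay above the jaw-D values of 405.20 and 325.58, the first of these by less than 0.1 units, so that separation has no weight.

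Set beside the whole array, 1 of the 5 members, SP1L2, passed an adjusted p under 0.05 in the limma fit (Benjamini-Hochberg over all 22746 probe sets), and 4.19% of all probe sets did, 1.64% of all higher and 2.54% lower in jaw-D. As deposited, both jaw-D values lay above both control values for 2 of the 5, SP1L2 and SPR1, as they did for 30.5% of all probe sets; they lay below for 0 of the 5, as for 19.1%. Since this contrast led to the choice of the family, nothing is read from these counts. The median log2 difference over the 5 members was 0.04, against 0.01 over all probe sets. An absolute difference at least as large as that of the member was found in 0.356% of all probe sets for SP1L2, 19.0% for SPR1, 66.1% for SP1L5, 84.4% for SP1L4 and 88.0% for SP1L3.

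**Figure D2:**
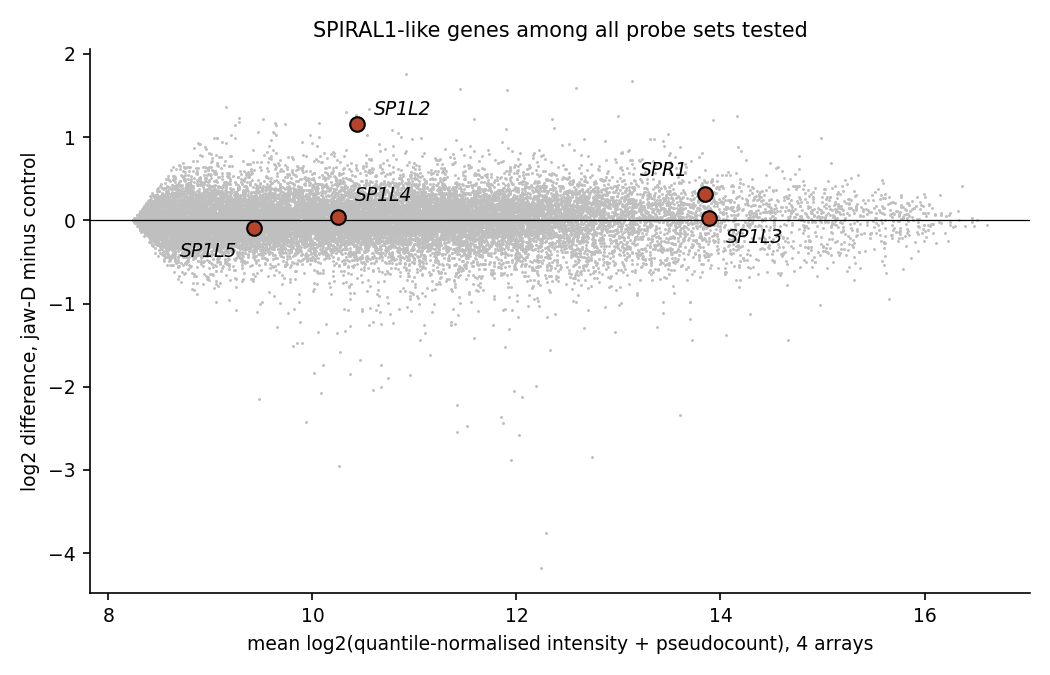
Log2 difference, jaw-D minus control, against the mean log2 value over 4 arrays for every probe set tested (grey) with the 5 SPIRAL1-like genes marked (red). SP1L2 lies at 1.16 at the upper edge of the cloud, SPR1 at 0.31, and SP1L3, SP1L4 and SP1L5 lie between -0.09 and 0.04, inside it.

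The order of the members by difference was SP1L2, SPR1, SP1L4, SP1L3 and SP1L5. The last 3 lay within an SE of 0.16 of one another. SP1L3 lay above SP1L4 when the first control array or the first jaw-D array was left out, and at 4 times the pseudocount. In the plot of the differences under each setting, SP1L2 was the highest of the 5 every time, and the smallest value it took, 0.70, was above the largest that SPR1 took, 0.45. The difference of SP1L2 on these same arrays led to the choice of the family, so its first place is a description and lends no support.

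**Figure D3:**
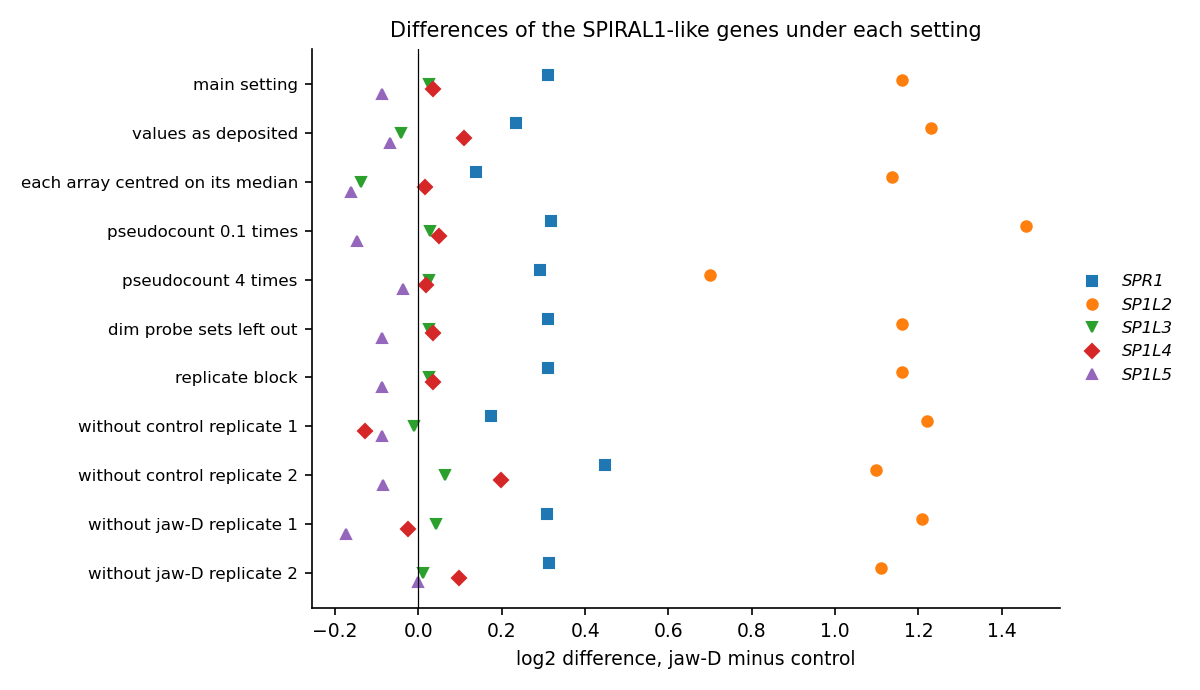
Log2 difference, jaw-D minus control (horizontal axis), of the 5 SPIRAL1-like genes under the main setting and 10 alternatives (rows). SP1L2 ran from 0.70 to 1.46, SPR1 from 0.14 to 0.45, and SP1L3, SP1L4 and SP1L5 stayed between -0.17 and 0.20.

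The pattern of SP1L2 over the 4 arrays was compared with that of 1579 other probe sets that carry 1 gene with a symbol, by the Euclidean distance between log2 values after each probe set's mean was removed. The nearest was CP1, a papain-type cysteine proteinase gene, at a distance of 0.136, with 1878.9 and 1906.0 deposited units in jaw-D against 616.0 and 528.0 in control. Next came the jacalin-related lectin genes JAL34 at 0.213 and JAL33 at 0.270, then the beta-glucosidase gene PYK10 at 0.353 and the endoglucanase gene GH9B13, of a family that acts on cell wall glucans, at 0.355. Their log2 differences between jaw-D and control were 1.27 for CP1, 1.12 for JAL34, 0.96 for JAL33, 1.25 for PYK10 and 0.83 for GH9B13. With 4 arrays in 2 groups, nearness on this measure says little more than that these genes had a difference of similar size and small spread. The other family members were farther, SPR1 at 0.897, SP1L3 at 1.14, SP1L4 at 1.18 and SP1L5 at 1.26.

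**Figure D4:**
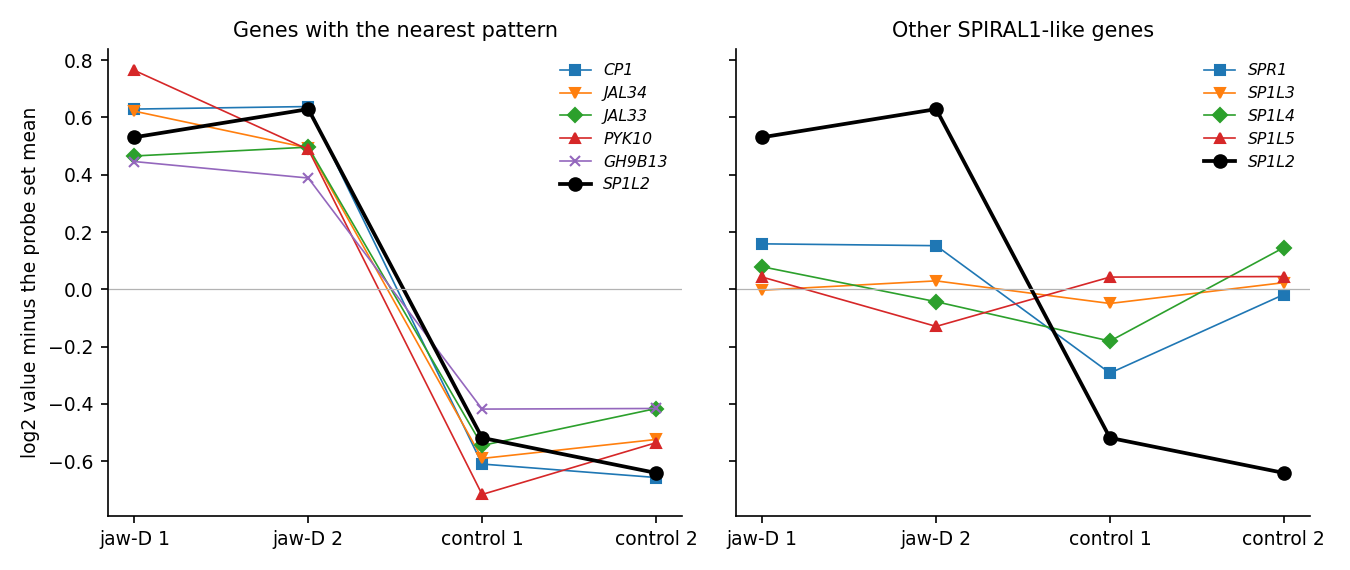
Log2 value minus the probe set's own mean (vertical axis) on the 2 jaw-D and 2 control arrays, for SP1L2 (black) with the 5 genes of nearest pattern (left) and with the other SPIRAL1-like genes (right). CP1 at a distance of 0.136 follows SP1L2 most closely, whereas SPR1, at 0.897 the nearest of the family, shows a much smaller step.

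SPIRAL1 proteins work on microtubules made by other genes, and 105 such cytoskeleton genes were listed from general knowledge, of which 27 had a probe set with 1 gene. Only such genes are called measured here, and the rest may have probe sets that carry no name here or are shared with other genes. In the limma fit 1 of the 27 rose in jaw-D, TUB5, 0 fell and 26 did not pass. At an unadjusted p under 0.05 there were 4 higher and 0 lower. AT1G70950, counted among the 4, and ACT12 were not above the highest Bacillus value on any array, and both stay in the counts of the 27. Over all probe sets 1.64% rose and 2.54% fell, and 10.1% were higher and 9.79% lower at an unadjusted p under 0.05, so 1 call in 27 is near the overall share. The median log2 difference of the 27 was 0.12, against 0.01 over all probe sets, and 19 of the 27 differences were positive, 70.4% against 51.4% of all probe sets. With each array centred on its median the 27 had a median of 0.03, against -0.06 over all probe sets. Under that scaling 16 of the 27 were positive, where 39.2% of all probe sets were. No set test was made on these counts.

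Tubulins are the building blocks of microtubules, and 7 of 15 listed genes of alpha- and beta-tubulin were measured. TUB5, a beta-tubulin gene, had 18008.9 and 17459.9 deposited units in jaw-D, against 12979.8 and 14256.5 in control, with no overlap. Its log2 difference was 0.47 ± 0.07 (SE; limma adjusted p 0.031). The call ended without quantile normalization (0.38, limma adjusted p 0.0533), when arrays were centred on their medians (0.28, limma adjusted p 0.132), without the variance trend of limma and without any 1 of the 4 arrays (limma adjusted p 0.122 to 0.192 without 1 array). The other 6 did not pass: TUB6 had a log2 difference of 0.29 (limma adjusted p 0.252), TUA6 of 0.20 (0.247) and TUB9 of 0.13 (0.344), and TUB1, TUB7 and TUA1 lay between -0.08 and 0.26.

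The other named genes of the microtubule lists numbered 7, and none passed. TON1B, of the TONNEAU1 proteins that organise cortical microtubules, had 1930.6 and 1988.2 deposited units in jaw-D, against 1147.2 and 1616.2 in control (log2 difference 0.35, limma adjusted p 0.314). WDL3, a relative of the microtubule protein WAVE-DAMPENED2, differed by 0.19 (limma adjusted p 0.65), and MAP65-6, of a family that cross-links microtubules, by 0.07 (0.718). KINESIN-13A, a gene of the kinesin family, differed by 0.02 (limma adjusted p 0.947). The tubulin-folding cofactor genes had differences of the other sign, PFI at -0.20 (limma adjusted p 0.417) and POR at -0.19 (0.505). COB, whose protein COBRA orients cellulose microfibrils in expanding cells, differed by 0.28 (limma adjusted p 0.126).

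In the actin list 3 of 19 genes were measured, and none passed at an unadjusted p under 0.05 either. SPK1, which activates the small GTPases that shape leaf epidermal cells, differed by -0.17 (limma adjusted p 0.495) and ACT11 by -0.13 (0.692). ACT12 was below the highest Bacillus value on all 4 arrays, at 12.8 to 83.9 deposited units. A further 10 of the 27 measured loci carry no name in the annotation used, so they are counted by locus alone. Of these 10, 0 passed and 8 differences were positive. AT1G70950 had 316.9 and 312.9 units in jaw-D, against 173.3 and 168.6 in control, all below the highest Bacillus value. The size of its difference, which is drawn with the others in the plot of the 27, is therefore not read.

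**Figure D5:**
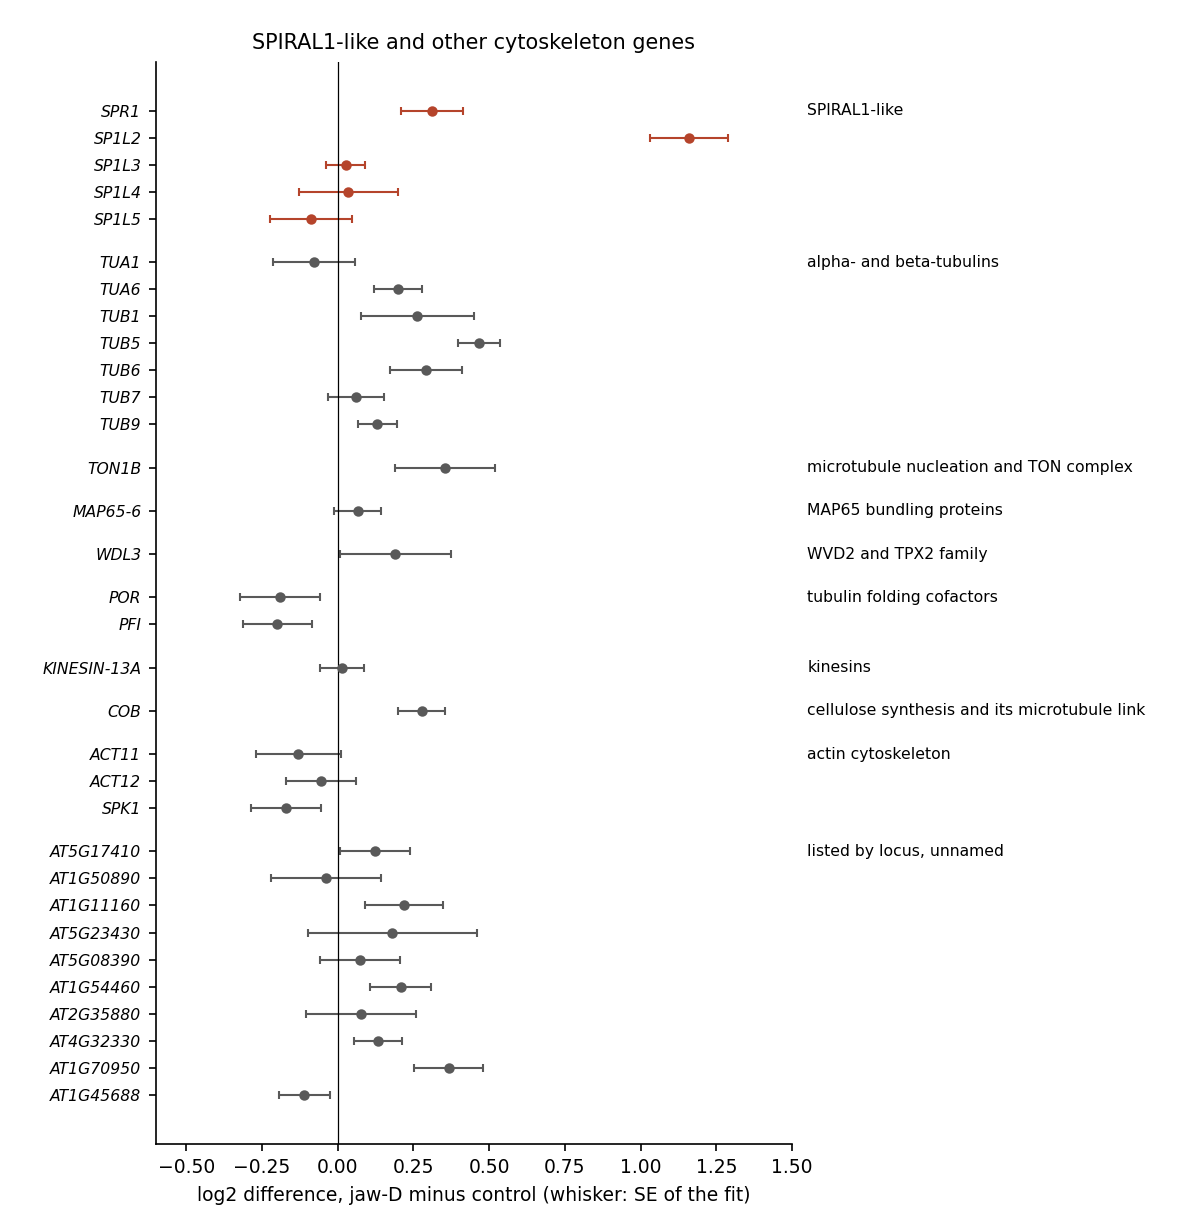
Log2 difference, jaw-D minus control, with the SE of the limma fit (whiskers) for the 5 SPIRAL1-like genes (red) and 27 other measured cytoskeleton genes (grey). Named genes are ordered by list, and the loci without a name form a group of their own. SP1L2 at 1.16 lies far to the right of the others, of which TUB5 is the highest at 0.47 and PFI the lowest at -0.20.

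The genes beside each member were examined in the gene order of the TAIR10.1 assembly, 3 protein-coding genes on either side, and 11 of 30 such neighbours were measured. The 2 measured neighbours of SP1L2, AT1G69210 and AT1G69250, overlapped between groups and had log2 differences of 0.00 each (limma adjusted p 0.997 and 0.991). AT1G69210 had 1561.5 and 1751.0 deposited units in jaw-D, against 1755.3 and 1342.6 in control, and AT1G69250 had 3317.6 and 3302.1 against 2991.7 and 3391.8. No difference of the size seen in SP1L2 was measured in either.

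SP1L5 lies on the same chromosome as MIR319a, the gene activated in jaw-D, with 23 protein-coding genes between them in the TAIR10.1 order. Of its 4 measured neighbours none passed, but 2 of them, AT4G23493 and AT4G23510, were below the highest Bacillus value on all 4 arrays. AT4G23470 had 5522.4 and 5421.0 deposited units in jaw-D, against 5711.4 and 5682.6 in control (log2 difference -0.06, limma adjusted p 0.742).

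Of the 11 measured neighbours 1 passed, where 4.19% of all probe sets did, and nothing is read from 1 call. AT3G02200, the second gene after SP1L3, had 13242.2 and 14544.3 deposited units in jaw-D, against 10300.5 and 10567.5 in control. It rose by 0.46 ± 0.07 (SE) on the log2 scale (limma adjusted p 0.0371), and the call ended with each array centred on its median (0.31, limma adjusted p 0.0899), without the variance trend (limma adjusted p 0.115) and without any 1 array (limma adjusted p 0.145 to 0.201). AT3G02190, between it and SP1L3, differed by 0.27 (limma adjusted p 0.414), AT2G03690 beside SPR1 by 0.20 (0.295) and AT5G15610 beside SP1L4 by 0.14 (0.696). On the other side of SP1L4, AT5G15570 differed by -0.004 (limma adjusted p 0.993), and AT4G23490 near SP1L5 differed by 0.04 (limma adjusted p 0.96). In the same gene order SP1L3 is next to LNG2 and SP1L4 is 2 places from LNG1, a pair of LONGIFOLIA genes that promote lengthwise leaf growth, and neither was analysed here.

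Across the series, 952 probe sets passed the limma fit, 374 higher and 578 lower in jaw-D. After normalization log2 values over all probe sets correlated at 0.992 between the jaw-D arrays, at 0.990 between the control arrays and at 0.979 to 0.984 between groups. Of the green-tissue markers, 3 of 5 were measured and bright on all 4 arrays. RCA, rubisco activase, had 65815.6 and 65824.9 units in jaw-D against 79465.2 and 64406.2 in control, and LHCB4.1, of the light-harvesting antenna, had 69369.8 and 69448.1 against 83574.1 and 76379.3. SBPASE, a Calvin cycle enzyme gene, fell by 0.42 on the log2 scale (limma adjusted p 0.044), a call that ended without the variance trend and without any 1 array. The measured root marker EXPA7 had 86.7 and 519.6 units in jaw-D, against 298.8 and 317.0 in control. Only its second jaw-D value lay above the highest Bacillus value of 352.6 units. Flower markers were not analysed here. The part of a changed tissue makeup in the SP1L2 difference was not tested.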

How the data were processed

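The authors deposited 1 table of microarray intensities on a linear scale, 1 value per probe set and array, for 4 arrays. The trimmed mean of the deposited intensities (2% off each end) was 2500.2 on every array, so they had been brought to a common level, and the scanning and scaling software is not given in the sources used here. From these, 64 control probe sets were left out and 22746 were quantile normalised, taken as log2(value + 302.3) and fitted with limma 3.58.1 in R 4.3.3 (lmFit, eBayes with a variance trend, 2 residual degrees of freedom, two-sided, Benjamini-Hochberg). The number of arrays limits the precision. Names came from the platform annotation through the TAIR10.1 gene table: 13513 probe sets had 1 gene, 503 several and 8730 none here.

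Named were all members, called genes, the measured genes with a symbol in each list, all measured neighbours, and the 5 nearest patterns. Listed loci without a name were counted only, whatever their p, except AT1G70950. Members and lists were chosen with earlier results of these data known. The fit was tested on simulated data. Alternatives were scaling, pseudocount, a filter on dim probe sets, the variance trend, a replicate block and leaving out each array.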

Additional observations from a re-analysis of the deposited data

How the results depend on the processing

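SP1L2 was higher in jaw-D under all 10 alternatives. The replicate block and the filter on dim probe sets cannot alter a difference by construction. Both jaw-D values lay above both control values, so leaving out 1 array or changing the pseudocount could not turn its sign. The gene was also chosen by these same values, so nothing is read from its constant sign. Its difference ran from 1.10 to 1.22 without 1 array and was 1.46 at 0.1 times and 0.70 at 4 times the pseudocount. Over all probe sets, 374 were called higher and 578 lower; centred on the median there were 248 and 978 (20.2% higher, against 39.3%), with dim probe sets left out 979 and 1134, without the variance trend 14 and 51, and with the replicate block 157 and 309. Deviations of same-numbered arrays from their group means correlated at -0.0213, so the numbers were not taken as pairs; the replicate block ended the calls of TUB5, SBPASE and AT3G02200 (limma adjusted p 0.0557, 0.0711 and 0.0576). Without 1 array, 0 were higher in limma (1641 to 2216 at an unadjusted p under 0.05) and 0 to 14 lower (1698 to 2166 unadjusted). The 1 cytoskeleton call, TUB5, became 0 calls on the values as deposited, centred on the median, with the replicate block, without the variance trend and without any 1 array (0 to 0), with 1 to 6 genes higher at an unadjusted p under 0.05; it remained with either pseudocount and with dim probe sets left out. The counts without 1 array come from fewer samples; the cause of the other shifts was not tested. Of the 5 members, SP1L3 turned sign in 3 alternatives and SP1L4 in 2. With 2 arrays per group, small differences such as those of SP1L3, SP1L4 and SP1L5 cannot be resolved, and SP1L5 lies near the level of probe sets with no plant target.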
